A study of Rattus norvegicus with 8 samples.

Results

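The AP-1 transcription factors of the rat are encoded by 7 genes measured here, Fos, Fosb, Fosl1, Fosl2, Jun, Junb and Jund, which were taken by their symbols in the authors' deposited comparison table and followed by Ensembl identifier through the gene counts of every library. They are 7 of 32623 annotated genes, and all 7 were among the 11740 genes with enough counts to test. The cells were hippocampal neuronal cultures from wild-type rats of strain SD, kept for 18 days in vitro. Polyadenylated RNA was sequenced from 4 libraries of cultures given vehicle and 4 of cultures given a PAM, a positive allosteric modulator, which strengthens the response of the NMDA receptor to its agonists. The sources used here name neither the modulator nor its dose or duration of exposure, and do not say whether the 4 libraries of a group came from separate cultures, so p-values measure the spread between these libraries, which may be technical.

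AP-1 is a family of paired transcription factors. Each protein carries a basic region that grips DNA and a leucine zipper that holds a partner. Fos proteins need a Jun partner to bind DNA, whereas Jun proteins can also pair with each other, and the pairs bind the TPA response element, and with some partners the cAMP response element. In neurons, calcium entry through the NMDA receptor is a classical inducer of Fos, Fosb and Junb, which are immediate early genes switched on without new protein synthesis, while Jund is known for steadier expression.

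The promoter sequences show which of these elements sit next to the genes themselves. Windows from 250 bases before to 50 bases after the transcription start were read from a RefSeq table of rat assembly GRCr8, in which 5 of the 7 genes, Fosb, Fosl1, Fosl2, Junb and Jund, had an entry. Both strands were searched for 4 motifs. TGANTCA, with any base at N, includes the TPA response element, which has C or G there, but is wider than it. TGACGTC begins the full cAMP response element, and TGACG is its shorter core, which also lies within TGACGTC. The CArG box is the site of serum response factor. TGANTCA was in 0 of the 5 windows, against 7.33% of all 33469 windows of that length and 4.47% of the 8945 windows of tested genes. TGACGTC was in 1 of the 5, Jund, against 3.22% of all windows and 5.78% of those of tested genes. TGACG was in 3 of the 5, Fosl1, Junb and Jund, against 21.2% of all windows and 33.3% of those of tested genes. The CArG box was in 0 of the 5, against 1.64% and 1.16%. The windows of Fosb and Fosl2 held none of the 4 motifs. With only 5 windows, the matches do not separate members that rose from those that did not. The stretches that hold matches are printed 5′ to 3′ on the strand of the gene, to show where each lies. Capitals mark the motif, and a match in capitals that does not begin with TGACG is its reverse complement.
Jund, chr16:18769850-18770007 of GRCr8, minus strand, 158 bases with matches 221 and 100 bases before the start: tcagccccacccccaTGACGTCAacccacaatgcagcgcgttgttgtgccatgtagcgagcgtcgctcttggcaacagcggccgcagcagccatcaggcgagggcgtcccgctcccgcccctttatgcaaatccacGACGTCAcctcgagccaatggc
Junb, chr19:40080956-40080990 of GRCr8, plus strand, a TGACG match 155 bases before the start: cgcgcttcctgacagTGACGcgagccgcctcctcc
Fosl1, chr1:212183722-212183820 of GRCr8, plus strand, TGACG matches 148 and 84 bases before the start: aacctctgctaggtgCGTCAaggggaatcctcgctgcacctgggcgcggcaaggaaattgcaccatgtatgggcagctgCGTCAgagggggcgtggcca
These matches describe letters in a window and were not tied to binding.

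Libraries held 2960406 to 4389430 gene counts, and the 7 genes together took 0.0707% to 0.0841% of them in vehicle and 0.09% to 0.0986% in PAM. Levels are given as CPM, the field's usual depth-scaled read count, here on library sizes adjusted by the TMM method, or, where genes are compared with each other, as RPKM, CPM per kilobase of exonic length. Where no read was counted, a level of up to 0.683 to 1.01 CPM remains possible (3 counts of the library total, for counting error only). A difference passed the test at a Benjamini-Hochberg adjusted p under 0.05 in edgeR's quasi-likelihood F test over all 11740 genes. PAM 3 and PAM 4 stood apart from the other libraries. Their log2 levels fell with gene length, with slopes of -0.0853 and -0.132 per doubling of exonic length, whereas the slopes of the other libraries lay between 0.00524 and 0.0627.

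The calls with PAM fell on the Fos side of the family. Of the 4 Fos genes, Fos, Fosb and Fosl2 rose and Fosl1 did not pass the test. Of the 3 Jun genes, edgeR called 0, with 1, Jun, at an unadjusted p under 0.05, while DESeq2 called 1, again Jun, and limma-voom 0. The 3 genes that rose are 42.9% of the family, beside 9.00% of all tested genes called higher, and 0 fell in edgeR (0 at an unadjusted p under 0.05, and 0 in DESeq2 and limma-voom), beside 9.89% of all tested genes called lower. The number of members that edgeR called higher was 1 without vehicle 1, vehicle 3 or PAM 3. It was 2 without vehicle 2, without PAM 2 or with the length trend removed. With upper-quartile scaling, and without both PAM 3 and PAM 4, it was 4, with Jun added. Without both PAM 3 and PAM 4, Jund was called lower. The median log2 fold change over the 7 genes was 0.31, and over all tested genes it was 0.02. In 4 of the 7, Fos, Fosb, Fosl2 and Jun, all PAM libraries lay above all vehicle libraries, which held for 10.3% of all tested genes.

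**Figure D1:**
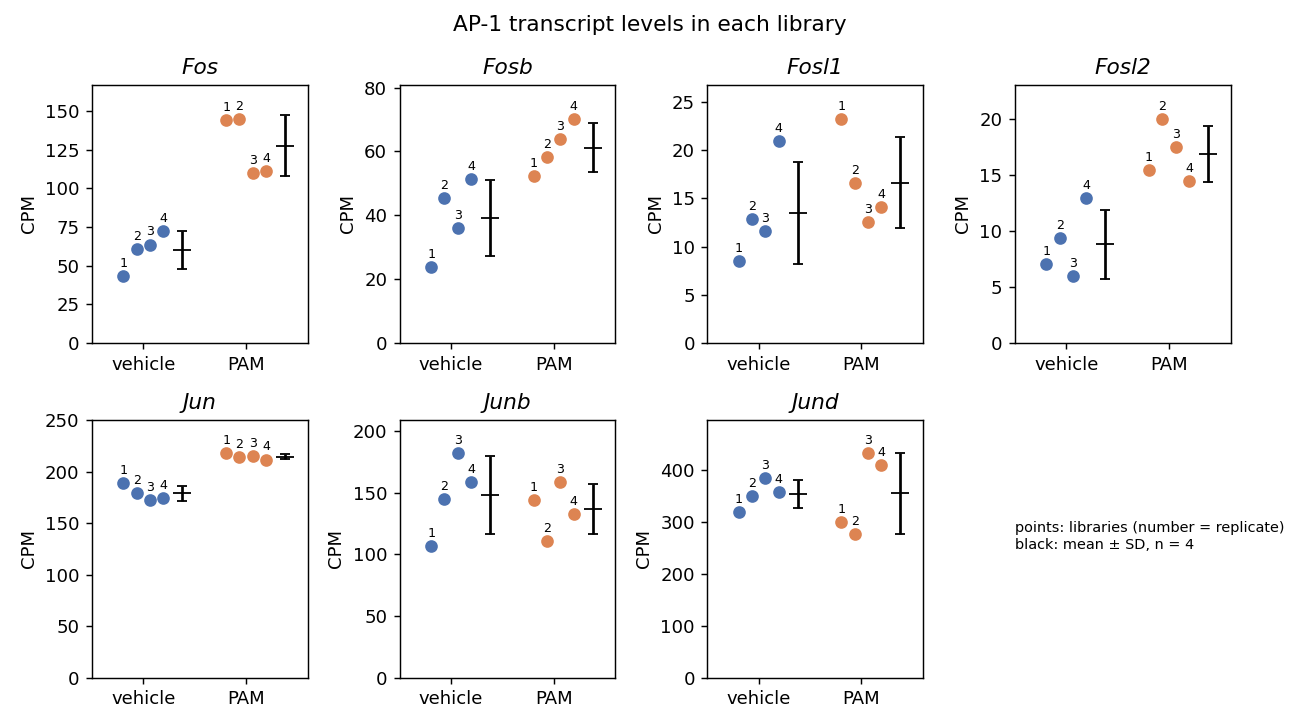
Level of each AP-1 gene in each library in CPM, with an axis from 0 for each gene; points are libraries labelled by replicate number, and black marks are the mean ± SD of 4 libraries. Fos in PAM 1 to 4 stood at 144, 145, 110 and 111 CPM, above the highest vehicle library at 72.5 CPM, while Jund in PAM was spread from 278 to 433 CPM around the vehicle values.

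Fos, the prototype immediate early gene, stood at 43, 60.8, 63.6 and 72.5 CPM in vehicle 1 to 4 and at 144, 145, 110 and 111 CPM in PAM 1 to 4. The lowest PAM library was thus above the highest vehicle library, and within PAM the values fell in 2 tight pairs, PAM 1 with PAM 2 and PAM 3 with PAM 4. These values rest on 141 to 224 counts per library in vehicle and 307 to 678 in PAM. The gene, ENSRNOG00000008015, lies at chr6:109300433-109303299 on the plus strand of Rnor_6.0. The fold change was 2.13, a log2 fold change of 1.09 ± 0.15 (SE, n = 4 per group, 95% confidence interval 0.77 to 1.41, edgeR adjusted p = 6.53e-05). This p ranked 154 among the 11740 genes. The call held under all 17 alternative analyses, with log2 fold changes from 0.96 to 1.28.

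Fosb, whose transcripts include the spliced form that encodes the long-lived protein ΔFosB, stood at 23.8, 45.4, 36 and 51.4 CPM in vehicle 1 to 4 and at 52.3, 58.4, 63.8 and 70.3 CPM in PAM 1 to 4. The groups did not overlap, but the gap between them was narrow, from 51.4 CPM in vehicle 4 to 52.3 CPM in PAM 1, and vehicle 1 was well below the other vehicle libraries. The counts belong to the whole gene (ENSRNOG00000046667, chr1:80214494-80221710, minus strand, Rnor_6.0) and do not separate the spliced forms. The log2 fold change was 0.64 ± 0.19 (SE, n = 4 per group, 95% confidence interval 0.24 to 1.04, edgeR adjusted p = 0.0249), a 1.56-fold rise. The edgeR call was lost without vehicle 1 (log2 fold change 0.46, adjusted p = 0.0742), without vehicle 3 (0.60, 0.0743) and without PAM 3 (0.62, 0.063).

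Fosl2, which encodes Fra-2, had one of the 2 lowest levels of the family in CPM. It stood at 7.01, 9.36, 5.95 and 12.9 CPM in vehicle 1 to 4 and at 15.4, 20, 17.5 and 14.4 CPM in PAM 1 to 4. All PAM libraries were above all vehicle libraries, although the values rest on only 19 to 40 counts per library in vehicle and 40 to 94 in PAM. The gene (ENSRNOG00000052357) spans chr6:25598936-25616995 on the minus strand of Rnor_6.0. Its fold change of 1.92 was close to that of Fos, with a log2 fold change of 0.94 ± 0.28 (SE, n = 4 per group, 95% confidence interval 0.36 to 1.52, edgeR adjusted p = 0.0228). The edgeR call was lost without vehicle 1, vehicle 2, vehicle 3, PAM 2 or PAM 3 and after removal of the length trend, where adjusted p ran from 0.0515 to 0.0783 and the log2 fold change from 0.78 to 0.97.

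Fosl1, which encodes Fra-1, is described mainly in proliferating and injured tissue. It stood at 8.54, 12.9, 11.6 and 21 CPM in vehicle 1 to 4 and at 23.3, 16.6, 12.6 and 14.1 CPM in PAM 1 to 4. The groups overlapped, and the highest vehicle library was above 3 of the 4 PAM libraries. The gene (ENSRNOG00000020552, chr1:220826560-220835066, plus strand, Rnor_6.0) had a log2 fold change of 0.31 ± 0.29 (SE, n = 4 per group, 95% confidence interval -0.29 to 0.91, edgeR adjusted p = 0.493). The interval holds both no difference and a rise as large as that of Fosb, so neither is excluded at 28 to 101 counts per library.

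Jun, the prototype Jun protein and the usual partner of Fos, was the steadiest gene of the family. It stood at 189, 179, 173 and 175 CPM in vehicle 1 to 4 and at 218, 214, 215 and 212 CPM in PAM 1 to 4. The coefficient of variation between libraries was 3.95% in vehicle and 1.3% in PAM, and every PAM library was above every vehicle library. The difference was small, a fold change of 1.2 with a log2 fold change of 0.26 ± 0.10 (SE, 95% confidence interval 0.06 to 0.47), and did not pass the edgeR test (adjusted p = 0.0638). It passed in DESeq2 (0.26, adjusted p = 0.0323), with upper-quartile scaling (0.29, 0.0392) and without both PAM 3 and PAM 4 (0.28, 0.0276). Jun (ENSRNOG00000026293) lies at chr5:114011189-114014277 on the minus strand of Rnor_6.0.

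Junb, an immediate early gene that often opposes Jun at shared sites, stood at 107, 145, 182 and 159 CPM in vehicle 1 to 4 and at 144, 111, 159 and 133 CPM in PAM 1 to 4. The groups overlapped over most of their range. The log2 fold change was -0.12 ± 0.15 (SE, n = 4 per group, 95% confidence interval -0.43 to 0.19, edgeR adjusted p = 0.635), so the interval does not reach a rise of the size measured for Fos. Junb (ENSRNOG00000042838) lies at chr19:26092974-26094756 on the minus strand of Rnor_6.0, and none of the 17 alternatives called it.

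Jund, the most abundant of the family, stood at 320, 350, 386 and 359 CPM in vehicle 1 to 4 and at 300, 278, 433 and 411 CPM in PAM 1 to 4. The vehicle libraries lay between the pairs formed by PAM 1 and PAM 2, both lower, and by PAM 3 and PAM 4, both higher. The group means of 354 ± 27.4 and 356 ± 78 CPM (SD, n = 4) gave a log2 fold change of 0.01 ± 0.13 (SE, 95% confidence interval -0.27 to 0.28, edgeR adjusted p = 0.983). With PAM 3 and PAM 4 both left out, edgeR called Jund lower (log2 fold change -0.28, adjusted p = 0.0261), a call that the full set of libraries did not give. Jund (ENSRNOG00000019568) lies at chr16:20485029-20486707 on the minus strand of Rnor_6.0.

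The pairs within PAM did not run the same way for all members. PAM 1 and PAM 2 were above PAM 3 and PAM 4 for Fos, at 144 to 145 against 110 to 111 CPM, and for Fosl1, at 16.6 to 23.3 against 12.6 to 14.1 CPM. They were below them for Fosb, at 52.3 to 58.4 against 63.8 to 70.3 CPM, and for Jund, at 278 to 300 against 411 to 433 CPM. The pairs overlapped for Fosl2, Jun and Junb. The pairs share the difference in length slope given above, and its part in the member values was not tested beyond the length-corrected fit.

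The authors' deposited table gave the same log2 fold changes to within 0.01 for the 7 genes, from -0.12 for Junb to 1.08 for Fos. Its adjusted p was 9.4e-09 for Fos, 0.0111 for Fosl2, 0.0179 for Fosb and 0.036 for Jun in the authors' deposited table. Jun is therefore past the threshold of 0.05 in that table and not in the edgeR test. The remaining 3 genes had adjusted p-values of 0.551 for Fosl1, 0.693 for Junb and 0.989 for Jund in the authors' deposited table.

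**Figure D2:**
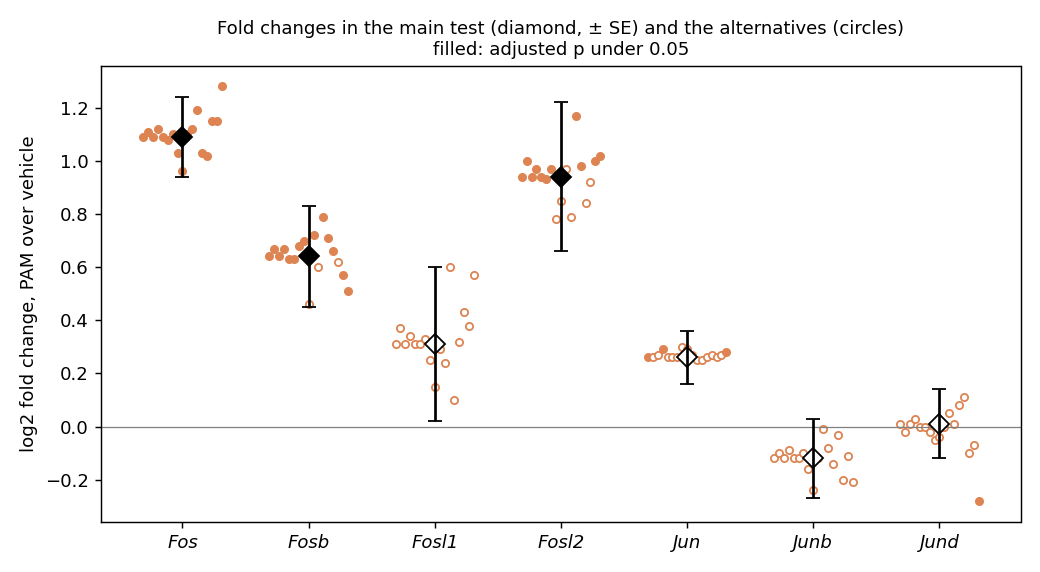
Log2 fold change of PAM over vehicle for each AP-1 gene, on the vertical axis; the diamond is the edgeR value with its SE, circles are the 17 alternative analyses, and filled symbols have an adjusted p under 0.05. All symbols of Fos are filled and lie between 0.96 and 1.28, those of Fosb and Fosl2 are partly filled, and Jund has 1 filled circle at -0.28, the fit without both PAM 3 and PAM 4.

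Levels per exonic length put the family in order. In vehicle, Jund led at 211 ± 16.3 RPKM (SD, n = 4), followed by Junb at 83.1 ± 17.7, Jun at 57.9 ± 2.29 and Fos at 37.7 ± 7.78 RPKM. Fosl2 at 11.8 ± 4.16, Fosb at 10.5 ± 3.22 and Fosl1 at 8.13 ± 3.21 RPKM were lowest. All libraries of Jund, Jun and Fos lay above those of the next gene. The libraries of Junb and Jun overlapped, as did those of Fosl2 with Fosb and of Fosb with Fosl1, so the ranges do not separate these neighbours. Within a library, Fosb was above Fosl1 in all of vehicle 1 to 4. Junb was above Jun in vehicle 2 to 4 and below it in vehicle 1, and Fosl2 was above Fosb except in vehicle 3. Among all tested genes in vehicle, 3.48% had a higher mean RPKM than Jund, 21.5% a higher one than Fos and 58.5% a higher one than Fosl1.

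With PAM, Fos moved up to the level of Junb and Jun. Jund stayed first at 212 ± 46.4 RPKM (SD, n = 4), and Fos at 80.1 ± 12.3, Junb at 76.7 ± 11.4 and Jun at 69.6 ± 0.901 RPKM overlapped with each other but not with Jund or Fosl2. Fosl2 followed at 22.7 ± 3.34 RPKM, with all libraries above those of Fosb at 16.4 ± 2.05 RPKM, which overlapped with Fosl1 at 10 ± 2.84 RPKM. Of all tested genes, 10.2% had a higher mean RPKM than Fos in PAM. The place of Fosl2 depends on its annotated exonic length of 744 bases, the shortest of the family (Fosb has 3741). In CPM, not divided by length, Fosl2 ranked last in vehicle and sixth in PAM.

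The make-up of the AP-1 transcripts differed with these levels. The summed level was 420 ± 43.1 RPKM in vehicle (359 to 453) and 487 ± 41 RPKM in PAM (441 to 534), and the groups overlapped. The 4 Fos genes made up 13.3%, 16.9%, 14.3% and 19.9% of that sum across vehicle 1 to 4. In PAM 1 to 4 they made up 29.7%, 32.6%, 22% and 23%, without overlap. Fos itself went from 8.92% ± 1.09 (SD, n = 4) to 16.7% ± 3.86 of the sum. Jund made up 50.3% ± 2.24 in vehicle and 43.1% ± 6.1 in PAM, with 48.3% and 48.5% in PAM 3 and PAM 4, within the vehicle range of 47.6% to 53%. The share of Junb was 19.6% ± 2.4 in vehicle and 15.7% ± 1.48 in PAM, and that of Jun was 14% ± 2.14 and 14.4% ± 1.24. These shares follow from the member values above and carry no test of their own.

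**Figure D3:**
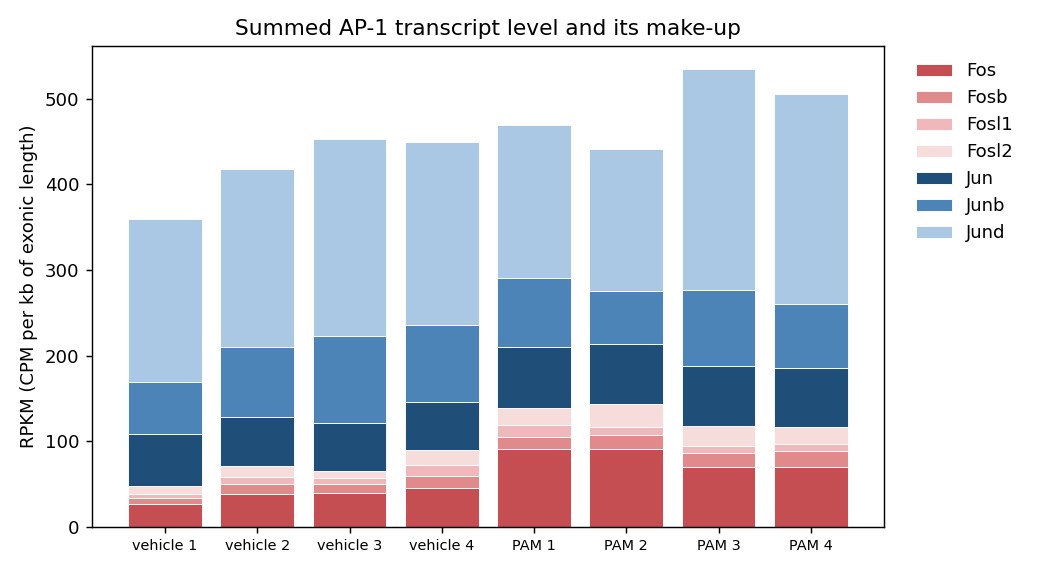
Summed RPKM of the 7 AP-1 genes in each library, stacked by gene with the Fos genes in reds at the bottom and the Jun genes in blues above. The red part spans 13.3% to 19.9% of the bar in the vehicle libraries and 22% to 32.6% in the PAM libraries, and the Jund block is the tallest in all 8.

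Whether Fos moved apart from other members was tested with the log2 ratio of Fos counts to those of each other member within a library. Such a ratio does not depend on the scaling between libraries. The ratio of Fos to Jun was -2.13, -1.55, -1.45 and -1.27 in vehicle 1 to 4. In PAM 1 to 4 the same ratio was -0.61, -0.56, -0.97 and -0.94. It was 0.83 higher in PAM, and the groups did not overlap. The ratio of Fos to Junb was 1.20 higher in PAM, at -1.30 ± 0.16 in vehicle and -0.10 ± 0.39 in PAM (SD, n = 4). That of Fos to Jund was 1.11 higher, at -2.58 ± 0.24 and -1.47 ± 0.54. Each of these 3 ratios reached p = 0.0286 in a two-sided exact permutation test over the 70 divisions of the libraries, the smallest p that the test can give, with a Benjamini-Hochberg adjusted p of 0.0429 over the 6 ratios tested.

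Within the Fos side, the ratio to Fosl1 differed about as much as that to Jun, while those to Fosb and Fosl2 overlapped between the groups. Fos to Fosl1 was 0.76 higher in PAM without overlap (exact permutation p = 0.0286, adjusted p = 0.0429). Fos to Fosb was 0.40 higher, with vehicle from 0.42 to 0.85 and PAM from 0.65 to 1.45 (exact permutation p = 0.171, adjusted p = 0.206). Fos to Fosl2 was 0.12 higher, with vehicle from 2.47 to 3.38 and PAM from 2.64 to 3.21 (exact permutation p = 0.629, adjusted p = 0.629). Unequal change of Fos was thus measured against Fosl1, Jun, Junb and Jund, and not detected against Fosb and Fosl2 with 4 libraries in a group. All ratios share the Fos counts and rest on the same counts as the fold changes above, so they are not separate evidence. The members were chosen with earlier results of these data known.

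**Figure D4:**
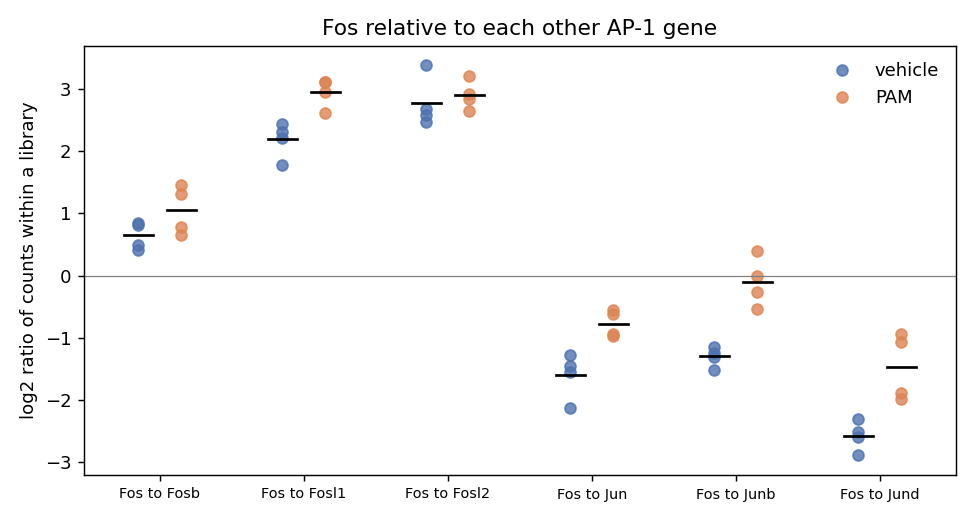
Log2 ratio of Fos counts to the counts of each other AP-1 gene within a library (vertical axis); points are libraries and bars are group means. The PAM points lie above the vehicle points without overlap for Fosl1, Jun, Junb and Jund, and overlap with them for Fosb and Fosl2.

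The members were also compared by the shape of their profile over the 8 libraries, as the root mean square difference of log2 CPM centred on the mean of each gene. Among the 21 pairs of members, Junb and Jund were nearest at 0.2, then Jun and Jund at 0.265 and Fos and Fosl2 at 0.289. Fos and Jund were farthest apart at 0.661. These are descriptions over libraries that share the treatment difference.

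Among 8855 other genes with at least 10 CPM on average, the nearest profiles to Fos were those of Drc1, a component of motile cilia, at 0.11, Plk2, an activity-induced kinase of neurons, at 0.171, and Top2a, a topoisomerase of dividing cells, at 0.177. All 3 rose, with log2 fold changes of 1.25, 1.19 and 0.87 (edgeR adjusted p = 0.00109, 2.62e-06 and 0.00359). The distance takes in the difference between the groups, so rises among the genes nearest to Fos, Fosb and Fosl2 partly follow from this selection. They are not separate evidence. Nearest to Fosb were Kcnk10, a potassium channel, at 0.116, Wnt7a, a Wnt ligand, at 0.146, and Pcna, a replication factor, at 0.152, of which Pcna rose (log2 fold change 0.64, edgeR adjusted p = 0.00414). Nearest to Fosl2 were Smc4, a condensin subunit, at 0.201, Tnfsf12, which encodes the cytokine TWEAK, at 0.227, and Ptprk, a receptor phosphatase, at 0.232, of which Tnfsf12 (0.86, edgeR adjusted p = 0.0387) and Ptprk (1.10, adjusted p = 0.000316) rose.

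Around the family, other leucine zipper proteins can pair with Fos or Jun or share their sites. Of 21 listed ATF, MAF, BATF and JDP genes, 12 were tested, of which 1 rose and 1 fell, or 8.33% each way, near the share among all tested genes. Atf5, a stress-response factor, fell from 375 ± 30.7 to 241 ± 57 CPM (SD, n = 4; log2 fold change -0.64 ± 0.14, edgeR adjusted p = 0.00317). Atf3, itself induced by stress and activity, was at 25 ± 7.48 and 20.7 ± 9.61 CPM and did not pass (edgeR adjusted p = 0.544), and Atf4 was at 727 ± 54.1 and 734 ± 131 CPM (adjusted p = 0.958). The median log2 fold change of the list was -0.18.

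The kinases and phosphatases that act on AP-1 gave calls in the other direction. Of 31 tested genes of this list, 8 fell (25.8%, beside 9.89% of all tested genes), and the median log2 fold change was -0.26. In edgeR 0 rose, with 4 higher at an unadjusted p under 0.05, and DESeq2 and limma-voom also called 0 higher. Dusp5, a nuclear phosphatase of ERK, fell most, from 77.9 ± 7.84 to 27.1 ± 5.13 CPM (SD, n = 4; log2 fold change -1.51 ± 0.16, edgeR adjusted p = 5.08e-06). Dusp4, another nuclear MAP kinase phosphatase, fell from 112 ± 8.81 to 72.5 ± 19.2 CPM (-0.62 ± 0.16, adjusted p = 0.00841). Map2k1, the ERK kinase MEK1, fell from 245 ± 16.4 to 162 ± 25 CPM (-0.59 ± 0.12, adjusted p = 0.00174). In the JNK branch, which phosphorylates Jun, the scaffold Mapk8ip2 fell from 285 ± 16.1 to 178 ± 27.3 CPM (-0.68 ± 0.12, adjusted p = 0.000397).

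The kinase Map3k12 and the scaffold Mapk8ip3, also of the JNK branch, fell by 0.44 and 0.57 on the log2 scale (edgeR adjusted p = 0.0139 and 0.0318). The other 2 were Mapk3, which encodes ERK1, and Rps6ka1, an ERK-activated kinase (log2 fold changes -0.34 and -0.71, edgeR adjusted p = 0.0454 and 0.0352), named because they complete the count of 8. These 4 calls were lost in some fits with 1 library left out, and the count fell to 5 without vehicle 1 and to 4 without vehicle 2 or without vehicle 4. Dusp1 was at 48.2 ± 6.36 and 62.7 ± 14.6 CPM and did not pass (edgeR adjusted p = 0.121). The JNK genes Mapk8, Mapk9 and Mapk10 did not pass either (edgeR adjusted p = 0.948, 0.114 and 0.0938). Between the same groups the summed neuron markers ranged from 4610 to 5470 CPM in vehicle and from 3200 to 3780 CPM in PAM.

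Factors that act on the Fos and Jun promoters gave few calls. Of 16 tested genes, 1 rose and 2 fell, beside 9.00% and 9.89% of all tested genes, and the median log2 fold change was -0.03. Crem, a cAMP-responsive factor whose gene also yields the repressor ICER, rose from 41 ± 6.48 to 84.6 ± 15.8 CPM (SD, n = 4; log2 fold change 1.04 ± 0.16, edgeR adjusted p = 0.000129), a fold change of 2.05. Gene counts do not separate its activator and repressor transcripts. Mef2a, a calcium-regulated factor, fell from 17.2 ± 7.43 to 5.69 ± 3.08 CPM (-1.54 ± 0.39, adjusted p = 0.00897), a call lost without vehicle 3 (adjusted p = 0.0532). Mrtfa, a co-activator of serum response factor, fell by 0.65 ± 0.18 on the log2 scale (edgeR adjusted p = 0.0175), a call lost without vehicle 1 (adjusted p = 0.0849). Srf, which encodes serum response factor, was at 46.8 and 41.3 CPM on average and did not pass (edgeR adjusted p = 0.466).

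Other immediate early genes gave few calls, in both directions, within the list chosen here, which does not hold every activity-induced gene. Of 24 tested, 1 rose and 3 fell (4.17% and 12.5%, beside 9.00% and 9.89% of all tested genes), and the median log2 fold change was -0.05. Arc, a synaptic immediate early gene, was at 36.6, 49.5, 63.9 and 55.3 CPM in vehicle 1 to 4 and at 16.4, 18.3, 18.6 and 19.5 CPM in PAM 1 to 4. It fell without overlap (log2 fold change -1.50 ± 0.19, n = 4 per group, edgeR adjusted p = 2.17e-05). Egr1, a zinc finger factor, fell from 44.2 ± 5.07 to 23 ± 8.57 CPM (-0.92 ± 0.21, adjusted p = 0.0051). Npas4, which depends closely on neuronal calcium entry, was at 44.1 ± 16.6 and 50.8 ± 7.24 CPM and did not pass (edgeR adjusted p = 0.592). Of 10 neuron markers, 7 fell between the same groups.

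The nuclear receptor genes gave weaker calls. Nr4a1 fell by 0.49 ± 0.15 and Nr4a2 rose by 0.72 ± 0.24 on the log2 scale (edgeR adjusted p = 0.0332 and 0.0395). Both calls were lost in several of the 17 alternatives, 7 for Nr4a1 and 6 for Nr4a2, with adjusted p up to 0.131 and 0.132. Nr4a3 was at 22.9 and 20.4 CPM on average and did not pass (edgeR adjusted p = 0.751).

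Genes described in textbooks and reviews as AP-1 targets moved in both directions, more often up. This list, like the others around the family, was chosen with earlier results of these data known, so its shares are a description only. Of 32 listed, 24 were tested, of which 9 rose and 2 fell (37.5% and 8.33%, beside 9.00% and 9.89% of all tested genes), and the median log2 fold change was 0.20. Ccl2, a chemokine, rose most, from 36.9, 38, 26.9 and 40.4 CPM in vehicle 1 to 4 to 298, 232, 278 and 258 CPM in PAM 1 to 4 (log2 fold change 2.90 ± 0.14, n = 4 per group, edgeR adjusted p = 1.75e-10). Penk, the precursor of enkephalin, rose from 56.2 ± 5.92 to 125 ± 9.19 CPM (1.16 ± 0.12, adjusted p = 5.01e-06). Inhba, which encodes a subunit of activin, rose from 1.85 ± 1.59 to 10.7 ± 1.87 CPM (2.52 ± 0.52, adjusted p = 0.00208), with 0 counts in vehicle 1. No vehicle library held more than 12 Inhba counts, while every PAM library held at least 32. The size of this rise therefore rests on few vehicle counts and is imprecise.

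Among targets that act on the matrix around cells, the protease gene Mmp3 rose from 9.69 ± 2.99 to 20.1 ± 3.63 CPM (SD, n = 4; log2 fold change 1.04 ± 0.26, edgeR adjusted p = 0.00869) and the inhibitor Timp1 from 86.4 ± 8.81 to 165 ± 33 CPM (0.93 ± 0.14, adjusted p = 0.00013). Mmp10, with 2.09 ± 1.66 and 5.99 ± 1.58 CPM, did not pass (edgeR adjusted p = 0.0772). The intermediate filament genes Vim and Gfap rose by 1.08 ± 0.13 and 0.72 ± 0.10 on the log2 scale (edgeR adjusted p = 1.73e-05 and 7.03e-05), and Gfap is also on the astrocyte list below. Cd44 and Ccnd1 complete the count of 9 (0.64 and 0.42, edgeR adjusted p = 0.0312 and 0.0353), and their calls were lost in 6 and 5 of the 17 alternatives.

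Of the 2 that fell, Th, the rate-limiting enzyme of dopamine synthesis, went from 5.94 ± 1.09 to 2.22 ± 1.1 CPM (SD, n = 4; log2 fold change -1.45 ± 0.47, edgeR adjusted p = 0.0354). The fall of Th rests on few counts, at most 11 in any PAM library and at most 24 in any vehicle library. Gap43, a growth cone gene, fell from 814 ± 40 to 656 ± 48.3 CPM (-0.31 ± 0.10, adjusted p = 0.0303). Both calls were lost in several fits with 1 library left out, with adjusted p up to 0.113 for Th and 0.1 for Gap43, and the count of targets lower went to 0 without vehicle 2, vehicle 3, vehicle 4 or PAM 1, to 1 without PAM 3 and to 4 without PAM 4.

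**Figure D5:**
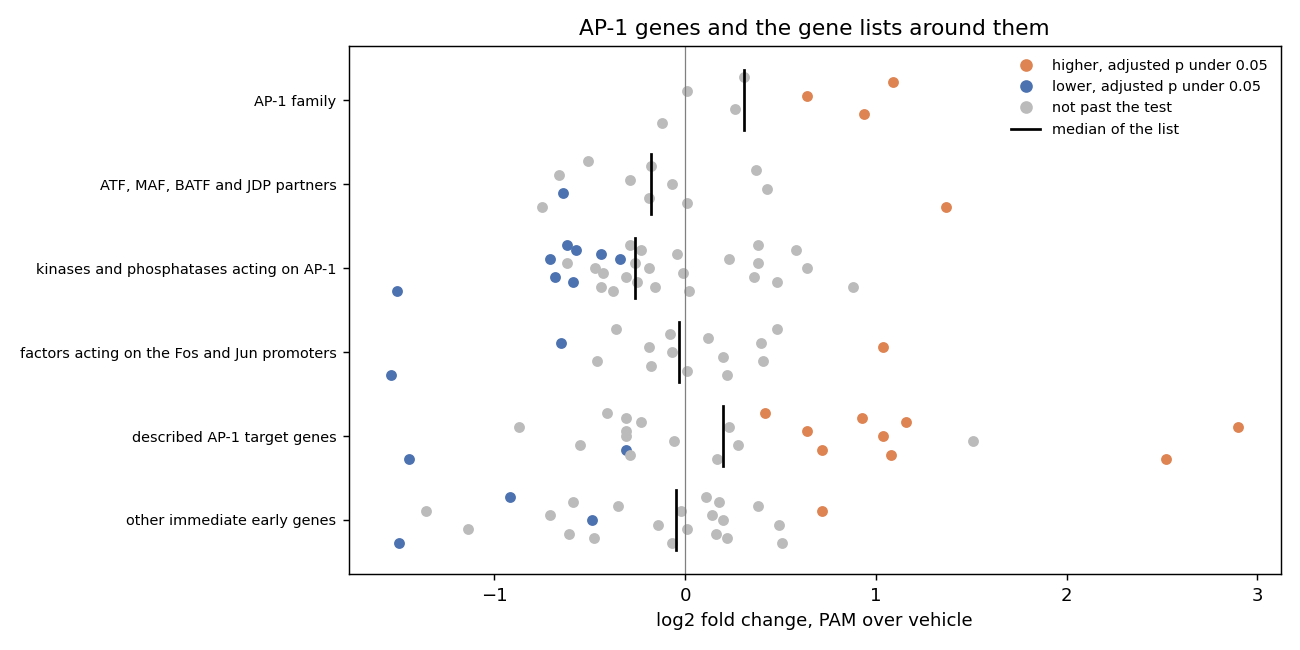
Log2 fold change of PAM over vehicle (horizontal axis) for each tested gene of the AP-1 family and of 5 lists around it; colour marks genes past the edgeR test and the black bar is the median of a list. The medians run from -0.26 for the kinases and phosphatases to 0.31 for the AP-1 family.

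Promoter windows were available for 21 of the 32 listed targets, and 7 of them held TGANTCA, Mmp3, Mmp10, Mmp12, Mmp13, Plaur, Nts and Th. Of these 7 genes, Mmp3 rose and Th fell, Mmp10 and Nts did not pass, and Mmp12, Mmp13 and Plaur had too few counts to test. Timp1, Cd44, Vim, Inhba and Gfap also rose, and their windows did not hold TGANTCA. Ccl2, Penk and Ccnd1, which rose too, had no window. The stretches of Mmp3 and Th, the 2 called genes with the motif, are printed with the match in capitals, to show where it lies in each. The Th window also held TGACGTC, 69 bases before the start, and the Mmp3 window did not. The call of Th was lost in 6 of the 17 alternatives, so the 2 stretches do not tie the motif to a direction.
Mmp3, chr8:12925195-12925231 of GRCr8, plus strand, 71 bases before the start, a gene that rose: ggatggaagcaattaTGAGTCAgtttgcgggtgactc
Th, chr1:207508427-207508463 of GRCr8, minus strand, 230 bases before the start, a gene that fell: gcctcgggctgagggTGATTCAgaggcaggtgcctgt
The matched letters differ between them at the base that the motif writes as N. Mmp3 has G there, and Th has T, which is outside the C or G of the TPA response element. Across the genome, TGANTCA was in 6.61% of the 817 windows of genes that rose, in 4.31% of the 858 windows of genes that fell and in 4.47% of the 8945 windows of all tested genes. TGACGTC was in 4.04%, 5.71% and 5.78% of the same windows. These shares are descriptions without a test.

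Marker genes of several cell types moved between the same groups, and their counts stand beside the 9.00% of all tested genes called higher and the 9.89% called lower. In bulk RNA, fewer cells of a type and less RNA per cell cannot be told apart. The summed level of 10 neuron markers was 4610 to 5470 CPM in vehicle and 3200 to 3780 CPM in PAM, and 7 of the 10 fell, among them Slc17a7, the vesicular glutamate transporter, from 1230 ± 83 to 784 ± 75.7 CPM (SD, n = 4). The 10 astrocyte markers summed to 7090 to 7480 CPM in vehicle and 9870 to 12200 CPM in PAM, and 5 of the 10 rose. Of 10 tested oligodendrocyte markers, 5 rose and 1 fell, and their sum was 958 to 1070 CPM in vehicle and 1350 to 1760 CPM in PAM. All 5 tested ependymal and choroid plexus markers rose (4 in limma-voom), with a sum over the 7 matched ones of 38.8 to 54 CPM in vehicle and 199, 162, 148 and 111 CPM in PAM 1 to 4.

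Markers of endothelial, mural and fibroblast cells summed to 104 to 161 CPM in vehicle and 151 to 257 CPM in PAM, and 3 of 6 tested rose. Of the microglia markers, 3 were tested, of which edgeR, DESeq2 and limma-voom called 0 (1 was lower at an unadjusted p under 0.05). The 5 matched ones had sums of 23.7 to 65.1 CPM in vehicle and 15.1 to 25.8 CPM in PAM. None of the matched markers of any list was at 0 in all libraries. The falls among the kinases and phosphatases and of Arc and Egr1 ran the same way as those of the neuron markers. Likewise, the rises of Fos, Fosb, Fosl2 and several targets ran the same way as those of the astrocyte and the ependymal and choroid plexus markers. The part of these marker shifts in the values of the AP-1 members, the kinases and phosphatases, the immediate early genes and the AP-1 targets was not tested.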

How the data were processed

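Gene counts of 4 vehicle and 4 PAM libraries were deposited by the authors as whole-number counts per Ensembl gene, with exon coordinates and lengths, per the file headers. Per the submitters' processing notes, the build was Rnor_6.0 and the tools included featureCounts, STAR, DESeq and DESeq2, with no version stated. Strandedness and the annotation release: not given in the sources used here. The authors also deposited their own PAM against vehicle table, which per the file headers holds group means (signal), a log2 fold change and a p-value with its adjusted form for each gene and which gave the gene symbols.

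Groups came from the sample titles. Counts were fitted in R 4.3.3 with edgeR 4.0.16 (filterByExpr, TMM scaling, robust quasi-likelihood F test, group as the only term, Benjamini-Hochberg adjusted p under 0.05 over 11740 genes). The SE is the log2 fold change over the square root of F, with a median of 0.20 over all genes. The biological coefficient of variation, common to all genes, was 17.7%, and pairs of replicates had chi-square values of 2.77 to 14.8 per degree of freedom, above sampling noise. Log2 CPM used a prior count of 2, and ratios added 0.5 to each count. Alternatives were DESeq2 1.42.0, limma-voom (limma 3.58.1), upper-quartile and RLE scaling, testing without a low-count filter, a mean of at least 1 CPM, a replicate block, removal of the length trend (loess, span 0.5), each library left out, and both PAM 3 and PAM 4 left out. The scripts were tested on simulated data.

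The members and the 12 gene lists were chosen with earlier results of these data known. Of 199 listed genes, 176 matched a symbol, and the other 23 were not analysed here. All members were named, with up to 6 genes of each list past the test by smallest p and the 3 nearest profiles of each member that rose. Genes outside this rule were named after their values were seen, as contrasts or to complete counts. One result under the rule is not reported here. Motifs were searched with Python 3.11.15 in RefSeq promoter windows of GRCr8, without conversion between builds. Protein sequences were not analysed here.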

Additional observations from a re-analysis of the deposited data

How the results depend on the processing

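Fos kept its direction and its call in all 17 alternatives. The edgeR calls of Fosb and Fosl2 depended on single libraries, with log2 fold changes of 0.46 to 0.79 and 0.79 to 1.17 over the 8 fits with 1 library left out, and Fosl2 was at 0.78 (adjusted p = 0.0618) with the length trend removed. Jun was past the threshold in DESeq2 (0.26), with upper-quartile scaling (0.29) and without both PAM 3 and PAM 4 (0.28), and ran from 0.25 to 0.29 with 1 library left out. Jund, close to 0, changed sign in limma-voom (-0.02), with the length trend removed (-0.05), without both PAM 3 and PAM 4 (-0.28), and without vehicle 1 (-0.04), PAM 3 (-0.10) or PAM 4 (-0.07), with a range of -0.10 to 0.11 over the fits with 1 library left out. Except where a count falls because fewer libraries were tested, the cause was not tested.

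Replicate numbers did not pair the libraries: same-numbered libraries had correlations of -0.06 to 0.068, and none correlated best with its own number. With the replicate number as a block, 954 genes were called higher and 1110 lower, against 1057 and 1161, the members kept their calls (Jund -0.02, Fosb adjusted p = 0.00924, Fosl2 adjusted p = 0.0306), the partners called lower went to 2 and the immediate early genes called higher to 0. For the ratios, a block left a smallest possible p of 0.125.

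Partners called lower were 2 in DESeq2, limma-voom, the fit without a low-count filter, the length-corrected fit and the fit without both PAM 3 and PAM 4, and partners called higher were 2 in the last of these and with upper-quartile scaling. Kinases and phosphatases called higher were 1 with upper-quartile scaling and without a filter. The median of the targets was 0.35 in DESeq2, 0.34 without a filter and 0.27 with a mean of at least 1 CPM. Immediate early genes called lower were 5 without a filter. Without both PAM 3 and PAM 4, 5 immediate early genes were lower and 2 higher, 2 promoter factors were higher and 4 targets were lower.

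With 1 library left out, partners called higher ran from 1 to 2 and lower from 1 to 3, with a median of -0.39 to -0.07. Kinases and phosphatases ran from 0 to 1 higher and 4 to 10 lower, promoter factors from 1 to 2 lower, targets from 0 to 4 lower with a median of 0.13 to 0.29, and immediate early genes from 0 to 2 higher and 2 to 6 lower with a median of -0.21 to 0.04. At this depth Fosl2 rests on 19 to 94 counts per library, which limits its precision.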
